A study of Mus musculus with 4 samples.

Results

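The genes described here are 10 markers of meningeal fibroblasts, found by their gene names among the 22084 genes counted in RNA-seq libraries of the embryonic mouse forebrain. They are the transcription factors Foxc1, Foxd1 and Twist1, the retinoic acid genes Aldh1a2 and Crabp2, the chemokine Cxcl12, the matrix proteoglycans Lum and Dcn, the transporter Slc6a13 and the prostaglandin synthase Ptgds. All 10 had counts in every library, and all 10 passed the filter on low counts.

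The study concerns the part that Tcf20, a nuclear protein, plays in making neurons in the mouse brain. It holds 4 RNA-seq libraries of strain B6D2F2 at embryonic day E13.5. KO26F and KO23M are labelled TCF20-/- and form the KO group. WT22M is called wild type in its title and TCF20+/- in its genotype field, so its genotype is uncertain. WT25F is labelled TCF20+/+ in both. WT22M and WT25F, which have an intact allele whichever label holds, are grouped as carriers. The design text speaks of triplicates, while 4 libraries were analysed here. The sources used here do not say how the Tcf20 allele was made or whether a library came from 1 embryo. The titles name telencephalic tissue and the extraction protocol names cerebral cortex, and neither says whether the meninges were removed. The labels name no separate litters or cultures, and p-values therefore measure only the spread between these samples.

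The meninges are the membranes around the brain, and their fibroblasts lay down a collagen-rich matrix over the growing cortex. In the mouse embryo, meningeal fibroblasts release retinoic acid, made by Aldh1a2, and the chemokine Cxcl12, which Cajal-Retzius cells and interneurons sense through the receptor Cxcr4. The forkhead factor Foxc1 is needed for the forebrain meninges to form in the mouse.

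Depth was even, at 17791641 to 18509743 counts per library, and 3 counts, the upper limit behind a count of 0, equal 0.162 to 0.169 CPM (counts scaled to the library total). Tcf20 stood at 98.6 CPM in KO26F and 104 in KO23M, against 111 in WT22M and 118 in WT25F, and was not called different between KO and carriers (log2 fold change -0.18, SE 0.10, edgeR adjusted p = 1). Because the deleted part of the gene is not stated, this level does not check the labels. Xist, expressed from the inactive X chromosome of females, reached 519 CPM in KO26F and 0.0540 CPM in KO23M, against 0.169 CPM in WT22M and 450 CPM in WT25F, so the F and M of the titles go with sex. Telencephalon markers were high in all libraries: Neurod6, a factor of cortical neurons, had 662 CPM in KO26F and 620.0 in KO23M, against 697 in WT22M and 634 in WT25F, and Lhx2, a factor of cortical progenitors, had 414 and 389 CPM in KO26F and KO23M, against 387 in WT22M and 359 in WT25F.

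Per length of exon, Ptgds and Cxcl12 had the highest mean levels of the 10 genes over the 4 libraries, and the forkhead factor Foxd1 the lowest. Mean levels in CPM per kilobase were 10.8 ± 10.2 for Ptgds, 10.1 ± 1.26 for Cxcl12 and 7.41 ± 0.968 for Crabp2 (SD, n = 4 libraries). Slc6a13 stood at 5.51 ± 1.33, Aldh1a2 at 4.99 ± 1.49, Lum at 4.50 ± 0.406 and Dcn at 4.47 ± 0.356 CPM per kilobase (SD, n = 4). Foxc1 at 2.37 ± 0.218, Twist1 at 1.5 ± 0.291 and Foxd1 at 0.919 ± 0.0992 CPM per kilobase (SD, n = 4) closed the order. The ranges of Crabp2, Foxc1, Twist1 and Foxd1 over the libraries stayed clear of the next higher gene, whereas those of Cxcl12, Slc6a13, Aldh1a2, Lum and Dcn overlapped it. The first place of Ptgds came from 1 library: its level was 26.1 CPM per kilobase in WT25F and as low as 5.18 in WT22M.

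**Figure D1:**
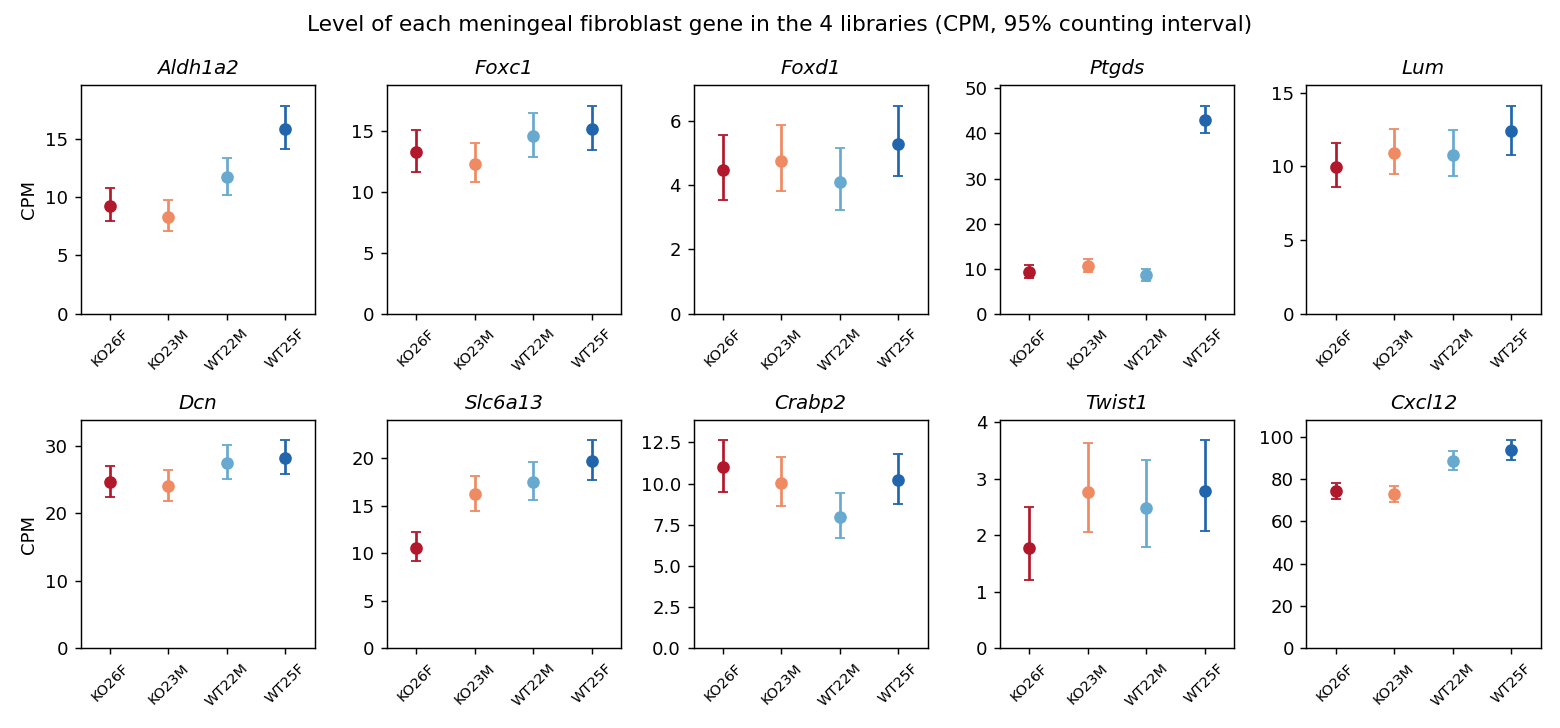
Level of each of the 10 meningeal fibroblast genes in CPM (linear axes from 0, scaled per gene) in KO26F, KO23M, WT22M and WT25F, with bars for the 95% counting interval. WT25F is the highest library for 9 of the 10 genes, and Ptgds in WT25F, at 43.0 CPM, stands far above the other libraries.

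Bulk counts do not show which cells made an RNA. Aldh1a2, the gene of a retinoic acid enzyme, and the chemokine gene Cxcl12 were lower in both KO libraries than in both carriers. Both are shown here with the 250 bases before their RefSeq start site (GRCm38.p6). Of the 10 genes, these 2 were called by edgeR with sex as a block, an alternative fit with 1 residual degree of freedom. The main comparison of KO with carriers called neither. Capitals mark E-boxes, the CANNTG motif that Twist1 and other basic helix-loop-helix factors bind.
Aldh1a2, chr9:71215539-71215788, plus strand: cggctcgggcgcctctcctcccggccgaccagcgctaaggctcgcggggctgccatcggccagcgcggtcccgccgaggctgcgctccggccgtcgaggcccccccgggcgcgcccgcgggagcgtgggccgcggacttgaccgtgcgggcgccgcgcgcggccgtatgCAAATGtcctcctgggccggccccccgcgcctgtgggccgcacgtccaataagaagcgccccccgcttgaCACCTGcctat
Cxcl12, chr6:117168285-117168534, plus strand: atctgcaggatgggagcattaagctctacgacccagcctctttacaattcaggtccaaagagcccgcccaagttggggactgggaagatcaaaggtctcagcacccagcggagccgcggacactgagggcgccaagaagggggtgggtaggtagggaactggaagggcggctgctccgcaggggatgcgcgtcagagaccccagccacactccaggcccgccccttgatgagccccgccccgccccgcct
The windows are GC-rich, at 77.6% G and C for Aldh1a2 and 64.4% for Cxcl12. Aldh1a2 has E-boxes that begin 81 bases (CAAATG) and 11 bases (CACCTG) before the start site, and the Cxcl12 window has none. CANNTG occurs in 66.2% of 32851 RefSeq windows of the same length, which is most windows. The other motifs searched on both strands were TAAACA, a forkhead core found in 12% of windows, AGGTCA, a nuclear receptor half-site found in 14.0%, and TATAAA, found in 12.4%. None of these 3 occurs in either window. RefSeq windows were matched for 7 of the 10 genes, all but Lum, Dcn and Crabp2.

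Aldh1a2 (ENSMUSG00000013584, chromosome 9, 71215789 to 71296243, plus strand) encodes retinaldehyde dehydrogenase, the enzyme of the last step of retinoic acid synthesis. It had 9.27 CPM (168 counts) in KO26F and 8.32 CPM (154 counts) in KO23M, against 11.7 CPM (208 counts) in WT22M and 15.9 CPM (285 counts) in WT25F. The groups did not overlap, and WT25F stood above WT22M by more than counting error (log2 ratio of WT22M over WT25F -0.44, 95% counting interval -0.71 to -0.18). The mean was 8.79 ± 0.67 CPM in KO and 13.8 ± 2.96 CPM in carriers (SD, n = 2 each), a log2 fold change of -0.65 (SE 0.18, 95% interval -1.03 to -0.27). This did not pass the threshold over all genes (edgeR quasi-likelihood test, two-sided, adjusted p = 0.886).

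Within the females, KO26F over WT25F gave a log2 ratio of -0.78 for Aldh1a2 (95% counting interval -1.06 to -0.50). Within the males, KO23M over WT22M gave -0.49 (-0.80 to -0.18). Both intervals lie below 0. With the title letter as a block, Aldh1a2 fell by 0.64 on the log2 scale (SE 0.17, edgeR adjusted p = 0.0196). That fit leaves 1 residual degree of freedom per gene, and on simulated data it called more unchanged genes than its threshold allows.

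Cxcl12 (ENSMUSG00000061353, chromosome 6, 117168535 to 117181367, plus strand), the chemokine that holds Cajal-Retzius cells under the meninges, was the most abundant of the 10 genes in counts. It had 74.3 CPM (1346 counts) in KO26F and 72.9 CPM (1349 counts) in KO23M, against 88.5 CPM (1575 counts) in WT22M and 93.6 CPM (1680 counts) in WT25F. The groups did not overlap, and libraries of the same group lay close together. The mean was 73.6 ± 0.971 CPM in KO and 91.1 ± 3.60 CPM in carriers (SD, n = 2 each), a log2 fold change of -0.31 (SE 0.10, 95% interval -0.52 to -0.10, edgeR adjusted p = 1). The log2 ratio was -0.33 in the F pair (-0.44 to -0.23) and -0.28 in the M pair (-0.39 to -0.17). With the letter as a block, Cxcl12 fell by 0.31 on the log2 scale (SE 0.08, edgeR adjusted p = 0.0168).

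Crabp2 (ENSMUSG00000004885, chromosome 3, 87948666 to 87953376, plus strand) carries retinoic acid from the cytoplasm to its nuclear receptors. It had 10.98 CPM (199 counts) in KO26F and 10.05 CPM (186 counts) in KO23M, against 7.98 CPM (142 counts) in WT22M and 10.2 CPM (183 counts) in WT25F. The groups overlapped, and WT22M was the lowest library. The log2 fold change of 0.21 (SE 0.19, 95% interval -0.18 to 0.59) was the only positive one among the 10 genes, and it was not called.

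Among the transcription factors, Foxc1 was lower in both KO libraries than in both carriers, by a small margin, while Foxd1 and Twist1 overlapped between the groups. Foxc1 (ENSMUSG00000050295, chromosome 13, 31806633 to 31812476, plus strand) had 13.3 CPM (241 counts) in KO26F and 12.3 CPM (228 counts) in KO23M, against 14.6 CPM (259 counts) in WT22M and 15.2 CPM (272 counts) in WT25F. The log2 fold change was -0.22 (SE 0.16, 95% interval -0.55 to 0.12), and the counting intervals of both sex pairs, -0.19 in F (-0.44 to 0.07) and -0.24 in M (-0.50 to 0.02), include 0. Foxd1 (ENSMUSG00000078302, chromosome 13, 98354242 to 98359305, plus strand), a forkhead factor also made in the embryonic diencephalon, had 4.47 CPM (81 counts) in KO26F and 4.75 CPM (88 counts) in KO23M, against 4.10 CPM (73 counts) in WT22M and 5.29 CPM (95 counts) in WT25F. Both KO libraries lay between the carriers, with a log2 fold change of -0.03 (SE 0.25, 95% interval -0.55 to 0.49). Twist1 (ENSMUSG00000035799, chromosome 12, 33957671 to 33959829, plus strand), a basic helix-loop-helix factor of cranial mesenchyme, had 1.77 CPM (32 counts) in KO26F and 2.76 CPM (51 counts) in KO23M, against 2.47 CPM (44 counts) in WT22M and 2.79 CPM (50 counts) in WT25F. KO26F alone stood low, and with so few counts the 95% interval of the log2 fold change (-0.22, SE 0.34) ran from -0.91 to 0.48.

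The matrix genes Lum and Dcn encode lumican and decorin, small leucine-rich proteoglycans that bind collagen fibrils, and are neighbours on chromosome 10, 46985 bases apart. Dcn (ENSMUSG00000019929, 97479609 to 97518143, plus strand) had 24.6 CPM (446 counts) in KO26F and 24.1 CPM (446 counts) in KO23M, against 27.5 CPM (490 counts) in WT22M and 28.3 CPM (507 counts) in WT25F. The groups did not overlap, and the mean was 24.3 ± 0.36 CPM in KO and 27.9 ± 0.504 CPM in carriers (SD, n = 2 each). The log2 fold change of -0.20 (SE 0.13, 95% interval -0.47 to 0.07) was not called, and the ratio was -0.20 in the F pair (-0.39 to -0.01) and -0.19 in the M pair (-0.38 to -0.0048). Lum (ENSMUSG00000036446, 97565128 to 97572703, plus strand) had 9.99 CPM (181 counts) in KO26F and 10.9 CPM (202 counts) in KO23M, against 10.8 CPM (192 counts) in WT22M and 12.4 CPM (222 counts) in WT25F. KO23M and WT22M were nearly level, so the groups overlapped, and the log2 fold change was -0.15 (SE 0.18, 95% interval -0.52 to 0.22).

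Slc6a13 (ENSMUSG00000030108, chromosome 6, 121300227 to 121337733, plus strand) encodes GAT2, a transporter of GABA and taurine in the leptomeninges. It had 10.6 CPM (192 counts) in KO26F and 16.2 CPM (300 counts) in KO23M, against 17.5 CPM (311 counts) in WT22M and 19.7 CPM (353 counts) in WT25F. The groups did not overlap, but the KO libraries differed from each other by more than counting error, with a log2 ratio of -0.61 for KO26F over KO23M (95% counting interval -0.88 to -0.35). The log2 fold change between the groups was -0.47 (SE 0.19, 95% interval -0.86 to -0.07, edgeR adjusted p = 1). It was -0.89 in the F pair (-1.15 to -0.64) and -0.11 in the M pair (-0.34 to 0.12). Without KO23M the log2 fold change was -0.83 (edgeR adjusted p = 0.0262), and without KO26F it was -0.18 (adjusted p = 1).

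Ptgds (ENSMUSG00000015090, chromosome 2, 25466709 to 25470046, minus strand) encodes prostaglandin D2 synthase, a secreted enzyme of the leptomeninges and the choroid plexus. It had 9.27 CPM (168 counts) in KO26F and 10.6 CPM (197 counts) in KO23M, against 8.54 CPM (152 counts) in WT22M and 43.0 CPM (772 counts) in WT25F. WT25F stood alone: it was at least 2-fold above each other library, as were 0.185% of all genes tested, while WT22M was the lowest of the 4. The mean was 9.96 ± 0.972 CPM in KO and 25.8 ± 24.4 CPM in carriers (SD, n = 2 each), and the log2 fold change of -1.36 (SE 1.1, 95% interval -5.78 to 3.05) was not called. Without WT25F it was 0.20 (SE 0.24, edgeR adjusted p = 1), without WT22M -2.10 and without KO23M -1.49, both called by edgeR with a lone library on one side. The log2 ratio was -2.21 in the F pair (-2.46 to -1.97) and 0.32 in the M pair (0.00 to 0.63), opposite in sign, as for 4 of the 10 genes and 48.9% of all genes.

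**Figure D2:**
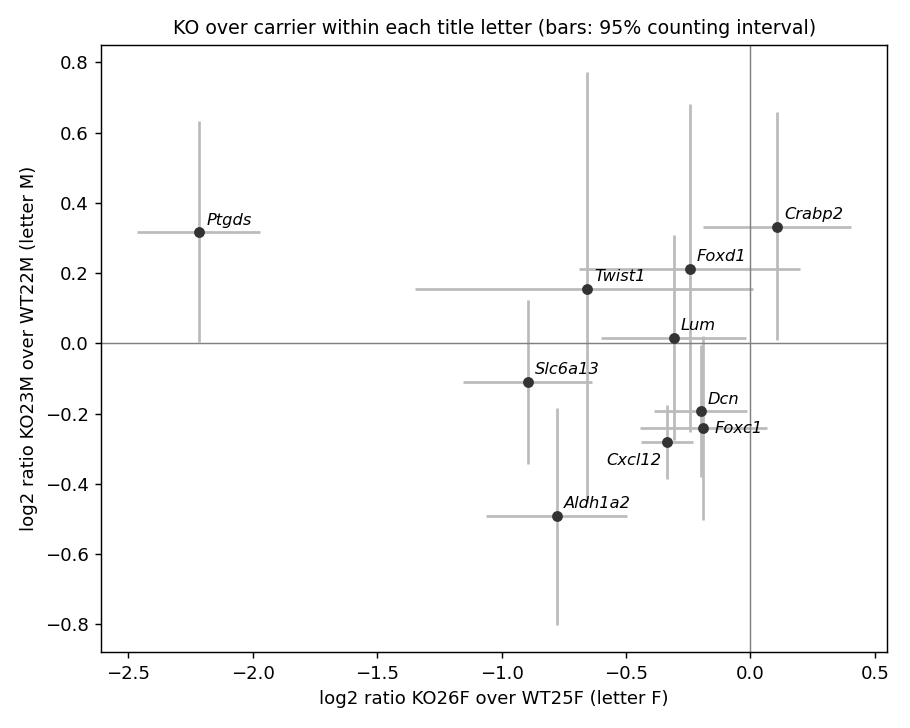
Log2 ratio of KO23M over WT22M (vertical axis) against log2 ratio of KO26F over WT25F (horizontal axis) for each of the 10 meningeal fibroblast genes, with bars for the 95% counting interval. Aldh1a2 and Cxcl12 lie below 0 on both axes with their whole intervals, while Ptgds lies at -2.21 in the F pair and at 0.32 in the M pair.

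Over the 10 genes, 0 were called between KO and carriers, against 0.0615% of the 16252 genes tested (10 genes). An unadjusted edgeR p under 0.05 was reached by 3 of the 10 genes and by 464 of the 16252 genes tested. The 10 genes were chosen with earlier results of these data known, so these counts were not compared. Of the 10 genes, 9 had a negative log2 fold change, with a median of -0.22, while the median of all genes was 0.00. Both KO libraries lay below both carriers for 5 of 10 genes (Aldh1a2, Cxcl12, Dcn, Foxc1 and Slc6a13), against 13.4% of all genes, and above both for 0 of 10, against 13.6%. With the letter as a block, 2 of the 10 genes were called, both lower, where 0.381% of all genes were called lower. In bulk tissue, fewer meningeal cells and less RNA of these genes per cell cannot be told apart. GENCODE vM21 places the pseudogene Gm48124 within Aldh1a2 and the miRNA gene Gm24855 within Slc6a13, both on the opposite strand. Overlap with exons of the host was not checked, and the strand setting of the counting is not stated. Whether reads of either were counted for its host is therefore not known.

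**Figure D3:**
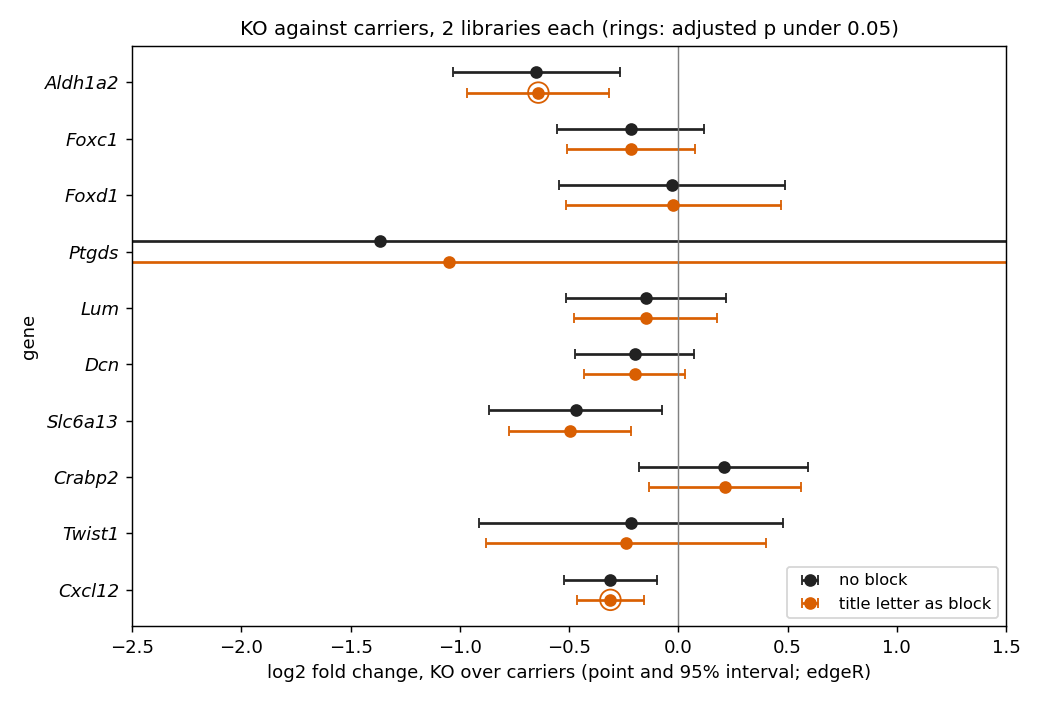
Log2 fold change of KO over carriers for the 10 genes, with 95% intervals (edgeR), without a block (black) and with the title letter as a block (orange); rings mark an adjusted p under 0.05. The rings fall on Aldh1a2 and Cxcl12 with the block, 9 of 10 estimates lie below 0 in either fit, and the intervals of Ptgds run past both ends of the axis (-5.78 to 3.05 without the block).

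Part of this pattern turned on WT25F, more for some genes than for others. WT25F was the highest library for 9 of the 10 genes, all but Crabp2, against 25.4% of all genes. Both KO libraries lay below WT25F for 9 of 10 genes, against 32.0% of all genes, and below WT22M for 5 of 10, against 27.9%. WT22M itself lay below WT25F for all 10 genes, against 55.9% of all genes. Without WT25F the median log2 fold change of the 10 genes was -0.17, 7 of 10 were negative and 0 were called, against 0.591% of all genes. In that comparison the log2 fold change was -0.43 for Aldh1a2 (SE 0.23), -0.29 for Cxcl12 (SE 0.15) and -0.40 for Slc6a13 (SE 0.20). Dcn at -0.20 and Foxc1 at -0.21 changed little from the fit with all 4 libraries. Ptgds at 0.20 and Foxd1 at 0.15 changed sign. The median log2 ratio of the 10 genes was -0.32 for KO26F over WT25F, -0.05 for KO23M over WT22M and -0.18 for WT22M over WT25F.

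Set against WT25F alone, which is the comparison of the deposited tables, the log2 fold change in KO was -0.84 for Aldh1a2 (SE 0.22) and -2.10 for Ptgds (SE 0.19). The edgeR fit with 3 groups called these 2 of 10 genes, where 0.178% of all genes were called lower. That fit compares with a single library and takes its spread from the 2 KO libraries alone, with the lone libraries assumed to vary like them. With the spread of the fit of KO against carriers, neither gene was called (edgeR adjusted p = 0.776 for Aldh1a2 and 1 for Ptgds), nor was either without the filter on low counts (adjusted p = 1 and 0.777), and DESeq2 called Ptgds but not Aldh1a2 (adjusted p = 1). The log2 fold changes stayed at -0.84 and -2.10 in all of these, so the calls changed with the fit and the filter. For Aldh1a2 the SE was 0.22 with the spread of KO against carriers, 0.15 without the filter and 0.37 in DESeq2. Why the Aldh1a2 call was lost in these settings was not tested. For Ptgds, the spread of KO against carriers holds the gap between WT22M and WT25F (SE 1.25), so that setting could hardly call it. WT22M over the same WT25F gave a log2 ratio of -0.44 for Aldh1a2 (95% counting interval -0.71 to -0.18) and -2.33 for Ptgds (-2.59 to -2.08). In the fit with 3 groups, 1 of 10 genes, Ptgds, was called lower in WT22M, where 0.535% of all genes were, but with 1 library on either side that call has no replicate check. Both comparisons share WT25F.

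In the authors' deposited tables, Ptgds was the only one of the 10 genes marked as significant, with log2 fold changes of -2.21 in KO26F, -2.02 in KO23M and -2.33 in WT22M, each against WT25F. The mark in the authors' deposited tables asks for an adjusted p under 0.05 and a log2 fold change at or beyond 1 in either direction. By p alone, Aldh1a2 passes the same 0.05 threshold in every comparison of the authors' deposited tables. Its log2 fold changes there are -0.78 in KO26F, -0.93 in KO23M and -0.44 in WT22M, so that rule also separates the carriers. Cxcl12 (-0.33 in KO26F and -0.36 in KO23M) and Slc6a13 (-0.89 and -0.28) pass by p in both KO libraries but not in WT22M. Dcn (-0.23) passes in KO23M only. The share of all genes that pass by p alone is not given here. Each p-value in the authors' deposited tables compares 1 library with another, not the genotypes. The authors' deposited tables mark 1.02% of their genes as lower in KO26F, 1.92% in KO23M and 2.43% in WT22M.

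Other meningeal and fibroblast genes, 24 of 25 listed being in the files, ran the same way as the 10 genes. Their summed level was 1063 CPM in KO26F and 1097 in KO23M, against 1213 in WT22M and 1394 in WT25F, the same order of libraries as for the 10 genes, which summed to 168 and 173 CPM in KO26F and KO23M, against 194 in WT22M and 246 in WT25F. Of 22 tested, 20 had a negative log2 fold change, with a median of -0.21. Of these 22, 0 were called, where 0.0615% of all genes were. Without WT25F, 17 of 22 were negative, with a median of -0.13. With the letter as a block, 5 of 22 were called, all lower, where 0.381% of all genes were called lower. These were the collagen I chains Col1a1 (-0.35, adjusted p = 0.00213) and Col1a2 (-0.42, adjusted p = 2.08e-05), the proteoglycan Bgn (-0.30, adjusted p = 0.0302), the growth factor Igf2 (-0.35, adjusted p = 8.14e-06) and the matrix protein Vtn (-0.36, adjusted p = 0.0102), as log2 fold changes from edgeR.

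Col1a2 showed this in each library, with 73.5 CPM in KO26F and 83.7 in KO23M, against 105 in WT22M and 105 in WT25F. Igf2, the most abundant gene of that list, had 270 CPM in KO26F and 286 in KO23M, against 317 in WT22M and 392 in WT25F. The groups did not overlap for either gene. Col3a1 had 106 CPM in KO26F and 116 in KO23M, against 126 in WT22M and 125 in WT25F. Zic1, a zinc finger factor of the meninges and the dorsal midline, had 136 CPM in KO26F and 134 in KO23M, against 128 in WT22M and 181 in WT25F, so its groups overlapped.

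Of the pathway partners of the 10 genes, 0 were called between KO and carriers, where 0.0615% of all genes were called. At that share, 0 calls in lists this short say little about the pathways. With the letter as a block, Bgn was called lower, where 0.381% of all genes were. Of 17 retinoic acid pathway genes, 15 were in the files and 14 tested, of which 0 were called, with a median log2 fold change of -0.02. The retinoid receptor Rxrb had 127 CPM in KO26F and 136 in KO23M, against 131 in WT22M and 132 in WT25F, so its groups overlapped. For Cxcl12, the receptor Cxcr4 had 29.8 CPM in KO26F and 39.1 in KO23M, against 48.5 in WT22M and 31.4 in WT25F, and the scavenging receptor Ackr3 had 35.5 and 33.8 CPM in KO26F and KO23M, against 32.8 in WT22M and 32.7 in WT25F. Cxcr4 overlapped between the groups, and Ackr3 was slightly higher in both KO libraries, without being called.

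Of the other small leucine-rich proteoglycans, 8 of 9 were in the files. Bgn had 72.6 CPM in KO26F and 71.6 in KO23M, against 82.1 in WT22M and 95.2 in WT25F, while Fmod and Ogn overlapped between the groups. The taurine transporter Slc6a6 had 155 CPM in KO26F and 138 in KO23M, against 137 in WT22M and 159.8 in WT25F, so its groups overlapped. The prostaglandin pathway genes, 6 of 7 of them in the files, summed to 154 CPM in KO26F and 153 in KO23M, against 139 in WT22M and 157 in WT25F, led by Ptges3. The sums of the prostaglandin list overlapped between the groups.

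Markers of other cells that the dissected tissue could hold differed in direction. Skull and dermis mesenchyme, all 12 genes in the files, summed to 230 and 247 CPM in KO26F and KO23M, against 239 in WT22M and 237 in WT25F, so these groups overlapped. Without Dlx5, which the ganglionic eminences of the telencephalon also express, the other 11 summed to 129 and 129 CPM in KO26F and KO23M, against 143 in WT22M and 139 in WT25F, a sum taken after the values were seen. Both KO libraries lay below both carriers for 5 of the 12 genes, against 13.4% of all genes tested. Macrophage markers, all 10 in the files, summed to 95.7 CPM in KO26F and 99.9 in KO23M, against 122 in WT22M and 110 in WT25F. Of these, 8 of 10 had a negative log2 fold change, with a median of -0.29. Both KO libraries lay below both carriers for 8 of the 10 macrophage genes, against 13.4% of all genes tested. Among genes tested, that count was 3 of 10 for the endothelial and 2 of 7 for the pericyte list below. Without WT25F, 9 of 10 macrophage genes were negative, with a median of -0.38, against -0.17 for the 10 meningeal fibroblast genes. For the endothelial and pericyte lists that median was -0.14 and -0.09. Endothelial markers, all 10 in the files, summed to 369 CPM in KO26F and 388 in KO23M, against 414 in WT22M and 405 in WT25F, with 9 of 10 negative and a median of -0.12. Pericyte and smooth muscle markers, all 8 in the files, summed to 139 and 130 CPM in KO26F and KO23M, against 154 in WT22M and 151 in WT25F, with 7 of 7 tested negative and a median of -0.20, and Tagln was at 0 in KO23M. The sums of these 3 vascular and immune lists, and of the mesenchyme without Dlx5, were thus lower in both KO libraries than in both carriers, as those of the meningeal genes were, and their part in the result was not tested.

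Thalamus and diencephalon markers followed WT25F. All 8 were in the files and highest there, and their sum was 57.8 CPM in KO26F and 54.9 in KO23M, against 51.5 in WT22M and 115 in WT25F. Tcf7l2, a factor of the thalamus, had 11.1 CPM in KO26F and 9.72 in KO23M, against 7.87 in WT22M and 46.1 in WT25F, the same library in which Ptgds stood alone. Choroid plexus markers, all 10 in the files, summed to 1021 CPM in KO26F and 795 in KO23M, against 206 in WT22M and 963 in WT25F, so WT22M alone was low. Red blood cell genes, all 9 in the files, summed to 1775 CPM in KO26F and 1552 in KO23M, against 1356 in WT22M and 2167 in WT25F. With the letter as a block, where 0.375% of all genes were called higher, the water channel Aqp1 of the choroid plexus list (log2 fold change 0.69, edgeR adjusted p = 0.0152) and the embryonic globin Hba-x (0.73, adjusted p = 3.46e-05) were higher in KO. Aqp1 had 16.2 CPM in KO26F and 11.5 in KO23M, against 4.27 in WT22M and 14.8 in WT25F, so its groups overlapped. Markers of neural crest and Schwann cells summed to 9.62 to 13.8 CPM in the KO libraries and 11.7 to 12.8 CPM in the carriers, with Foxd3 at 0 in KO23M. Surface ectoderm markers, 3 of 5 in the files, summed to 1.24 to 2.15 CPM in KO and 0.947 to 1.85 CPM in carriers, with Krt15 at 0 in WT25F and Trp63 at 0 in KO23M. The part of these tissue differences in the levels of the 10 genes was not tested.

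**Figure D4:**
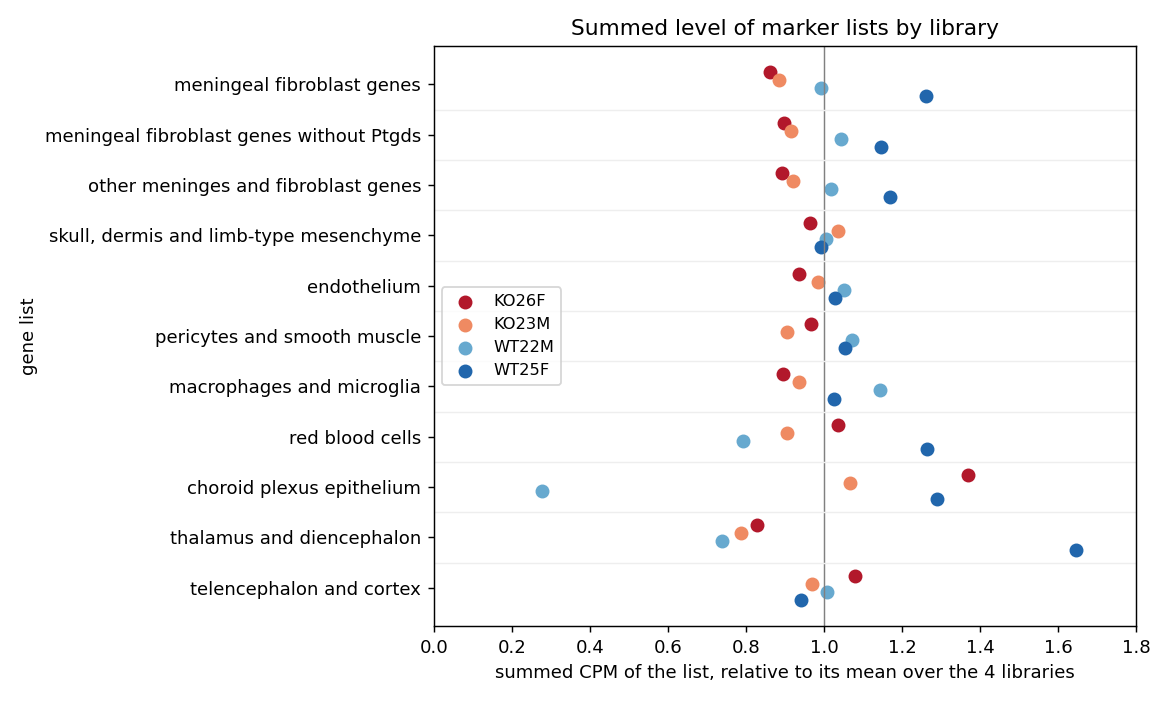
Summed CPM of the meningeal fibroblast genes, with and without Ptgds, and of marker lists of other cells in KO26F, KO23M, WT22M and WT25F, divided by the mean of the 4 libraries. The meningeal fibroblast genes and the other meningeal genes are lower in both KO libraries than in both carriers and highest in WT25F. The endothelial, pericyte and macrophage lists are also lower in both KO libraries than in both carriers, but highest in WT22M. Thalamus markers are high in WT25F alone, and choroid plexus markers are low in WT22M alone.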

How the data were processed

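RNA was sequenced from 4 libraries of embryonic mouse telencephalon, made with an Illumina TruSeq kit, according to the labels. Bowtie2 2.2.3, TopHat2 2.0.12, HTSeq 0.6.0 and the build mm9 are named in the submitters' processing notes; the sources used here do not give the strand or multi-mapping settings. KO26F, KO23M and WT22M each have a table against WT25F (3 tables), in which the authors deposited raw counts per gene, a normalized value in CPM, a log2 fold change, a p-value and a mark of significance. Count columns were tied to libraries through the named CPM column beside them. Of 22039 gene identifiers found in GENCODE vM21 (GRCm38), 20222 (91.8%) have identical positions, as do all 10 genes described, so positions are on GRCm38.

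The tables were joined by gene identifier, with 0 counts where a table lacks a gene (22084 genes, 19626 in all 3 tables). CPM printed here is the deposited count divided by the joined library total; levels per kilobase use the exon union of GENCODE vM21. Counting intervals at the 95% level (exact Poisson for levels, conditional binomial for ratios) and the floor of 3 counts cover counting error only. For edgeR log2 fold changes, the SE is the absolute log2 fold change divided by the square root of the F statistic. Their 95% intervals use that SE and a t distribution, and so include the spread between libraries.

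Counts were tested with edgeR 4.0.16 (quasi-likelihood, robust, TMM, filterByExpr on the 2 arms, Benjamini-Hochberg threshold 0.05) in R 4.3.3, over 16252 genes, for KO against carriers; a fit with 3 groups gave KO and WT22M, each against WT25F. The title letter served as a block in an alternative; the correlation across genes of the deviations of KO26F and WT25F from their arm means was 0.27. Further settings tried were DESeq2 1.42.0, voom of limma 3.58.1, RLE size factors, other filters, no X and Y genes, the spread of the 2-arm fit, and each library left out. The scripts were tested on simulated data, where the edgeR fits with 2 arms, with the block and with 3 groups called more unchanged genes than the threshold allows, most of all for KO against WT25F.

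The 10 genes and all lists were chosen with earlier results of these data known, so no p is given over a list. The rule names all 10 genes, Tcf20, up to 3 genes with the highest mean CPM of each other list, and list genes called in the main comparison or with the block. Some genes that this rule takes are not reported here. Tagln, Foxd3, Xist, Aldh1a3, Crabp1 and the sum without Dlx5 fall outside it and were chosen after their values were seen. Promoter windows are from RefSeq, GRCm38.p6.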

Additional observations from a re-analysis of the deposited data

Results flagged for a closer look

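For 4 of the 10 genes, the ratio of KO over carrier had opposite signs in the F and the M pair, as for 48.9% of all genes tested; all 4 were below 0 in F and above 0 in M. The M minus F difference of the log2 ratios was 2.53 for Ptgds, 0.814 for Twist1, 0.457 for Foxd1 and 0.325 for Lum. With 1 library per arm and sex, these differences were not tested. For Ptgds the pair ratios were 0.32 in M and -2.21 in F, and WT25F, at 43.0 CPM, was the only library above 10.6 CPM.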

How the results depend on the processing

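Between KO and carriers, 10 genes and 0 of the 10 meningeal genes were called; limma voom called 6 genes. With the title letter as a replicate block 123 genes and 2 of the 10 were called, Aldh1a2 and Cxcl12; the labels do not say that the letter marks a litter, batch or day, and only 2 pairs exist. Leaving out each library in turn gave 42 to 110 genes and 0 to 2 of the 10, with the lone library of an arm assumed to vary like the other arm. The log2 fold change changed sign among the left-out libraries for Foxd1 (-0.19 without WT22M to 0.15 without WT25F, and 0.03 without KO26F), Twist1 (-0.60 without KO23M to 0.084 without KO26F) and Ptgds (-2.10 without WT22M to 0.20 without WT25F). Against WT25F, KO had 56 genes and 2 of the 10 called: DESeq2 gave 23 and 1, no filter 0 and 0 (353 genes at an unadjusted p under 0.05), and the spread of the 2-arm fit 6 and 0. WT22M against WT25F had 116 genes and 1 of the 10 called: DESeq2 gave 33 genes, and no filter 0 and 0 (520 at an unadjusted p under 0.05); there the log2 fold change of Dcn was 0.0024, against -0.0054 with the filter, both near 0 and not called. The cause of these changes was not tested. For KO against carriers, RLE size factors, DESeq2, the filters, no X and Y genes and only genes in all 3 tables gave 9 to 11 genes and 0 of the 10. Low counts limit Twist1 and Foxd1 most.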
